A study of Mus musculus with 8 samples.

Results

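The genes described here serve mitochondrial fatty acid oxidation in RAW 264.7 cells, a mouse macrophage-like cell line from a BALB/c background. They are 10 genes in 3 roles: the carnitine shuttle (Cpt1a, Slc25a20 and Cpt2), the enzymes of beta-oxidation in the matrix (Acadvl, Acadl, Acadm, Hadha and Hadhb) and regulators (Ppard and Lpin1). Every non-control spot that carried one of these gene names was used, whatever its values, out of 27376 gene names on the array. The 10 genes had 16 probes and 25 spots on each array, because 1 of the Cpt1a probes was printed 10 times. 14 of these probes, from 9 of the genes, were well above background in either colour on at least 2 arrays and had a value on all 8 arrays. The single Ppard probe and 1 of the 3 Hadha probes were not well above background in either colour on any array.

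RNA was compared on 8 two-colour Agilent arrays. On each, Cy5-labelled RNA came from cells exposed to Lactobacillus acidophilus MTCC-10307 or Bacillus clausii MTCC-8326, at 100 bacteria per cell, for 1, 2, 4 or 6 h, and Cy3-labelled RNA came from untreated cells of the same time. Both bacteria were studied as potential probiotics. Equal amounts of RNA from 3 cultures were pooled for each condition, so every bacterium and time rests on 1 array. A p-value therefore measures a spread over times rather than between cultures. For the difference between the bacteria it is the spread of that difference over the times, and otherwise the spread between neighbouring times. The sources used here do not say whether both arrays of one time shared their untreated RNA. Treated RNA always carried Cy5, so an effect of the dye and an effect of the treatment cannot be told apart. The arrays of each bacterium lay on a slide of their own, so slide and bacterium cannot be told apart either.

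Untreated signal was well above background for 42.0% to 47.4% of the 41174 probes and treated signal for 39.6% to 51.5%, by array, and no spot was saturated. Of 10 macrophage markers, 8 were well above background in untreated cells on all 8 arrays, with Mertk on 0 arrays and Itgam on 3. None of 4 epithelial or 4 adipocyte and hepatocyte markers was detected on any array, while the T cell marker Cd3e was detected on 7 arrays and the fibroblast marker Col1a2 on 5. Their part in the results was not tested. The chemokine gene Cxcl2 had log2 ratios of 2.06, 1.84, -0.06 and 0.69 at 1, 2, 4 and 6 h (L. acidophilus) and 2.35, 1.03, -0.79 and -0.39 (B. clausii). A log2 ratio is the treated over the untreated signal on one array after normalization, so that 1 is 2-fold higher and -1 is 2-fold lower.

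Long-chain fatty acids enter the mitochondrial matrix only as carnitine esters. Carnitine palmitoyltransferase 1 in the outer membrane makes the ester, a carrier in the inner membrane exchanges it for free carnitine, and carnitine palmitoyltransferase 2 turns it back into acyl-CoA. Acyl-CoA dehydrogenases of different chain-length preference and the trifunctional protein then shorten the chain stepwise to acetyl-CoA. In macrophages this pathway is known for its link to alternative activation, while inflammatory activation is known for its reliance on glycolysis.

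The probes for Cpt1a and Lpin1 are shown because the widest time courses among these genes were read from them and because some of them share bases. Each is 60 bases long, and its first 30 bases are given 5′ to 3′ as in the array annotation. Capitals mark bases that A_52_P483104 and A_52_P483105 have in common.
Cpt1a A_51_P427674: tcttaggactacttgctaacctctgttact
Cpt1a A_52_P219753: cagttccattaagcaacaaaataacagatg
Lpin1 A_51_P394984: tacaaatgcaccatcttagacatacagcag
Lpin1 A_52_P483101: ccaaagagcctcattctgtggatgtcacac
Lpin1 A_52_P483104: GCCAGATCCTTAGGCTTATAGCCGTCATGA
Lpin1 A_52_P483105: ctgctgttgtgagcatcctaGCCAGATCCT
In the mouse build mm9 used by the annotation, the Cpt1a probes map to chr19:3385374-3385433 and chr19:3384629-3384688 on the plus strand, 685 bases apart. The Lpin1 probes map to the minus strand at chr12:16543315-16543373, chr12:16544129-16544188, chr12:16544189-16544248 and chr12:16544209-16544268, in the order listed. A_52_P483104 and A_52_P483105 overlap by 40 bases and A_52_P483101 starts at the base next to A_52_P483104, so these 3 probes read nearly the same stretch of the transcript and are not independent. A_51_P394984 lies 755 bases beyond them. Whether a probe falls in coding sequence or in an untranslated region was not analysed here, since no annotation of this build was used.

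Cpt1a encodes the liver-type carnitine palmitoyltransferase 1, the enzyme inhibited by malonyl-CoA and commonly described as rate-limiting for long-chain fatty acid oxidation. Averaged over the 4 times, Cpt1a was higher in treated than in untreated cells with both bacteria, although the B. clausii mean turned to -0.20 (not passing) where arrays were only centred on their medians, and its ratio lay on opposite sides of 0 early and late. With L. acidophilus the log2 ratio of probe A_51_P427674 was -0.30 at 1 h, -0.11 at 2 h, 0.54 at 4 h and 0.99 at 6 h. The B. clausii arrays gave -0.33 at 1 h, -0.08 at 2 h, 0.58 at 4 h and 0.83 at 6 h. Both early ratios were thus below 0 and both late ratios above 0 with either bacterium. At 6 h these ratios correspond to 1.98-fold and 1.78-fold higher signal in treated cells, and 33 and 124 of the other probes kept had a higher ratio on the same array.

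The 10 copies of this Cpt1a probe gave a check of the measurement within each array. Between 6 and 10 copies were usable per array, and their standard deviation was 0.06 to 0.20 on the log2 scale. At 6 h the lowest copy was at 0.70 with L. acidophilus and 0.70 with B. clausii, and at 1 h the highest copy was at -0.22 and -0.05. The copies therefore did not overlap between 1 h and 6 h, although they share one hybridized sample and are no biological replicates. The treated channel carried most of the difference. Normalized log2 intensity of treated cells was 9.69, 9.73, 10.33 and 10.77 at 1, 2, 4 and 6 h with L. acidophilus, against 9.99, 9.83, 9.79 and 9.78 in untreated cells. With B. clausii the treated levels were 9.65, 9.84, 10.47 and 10.91, against untreated levels of 9.98, 9.92, 9.88 and 10.07. Over all 8 arrays the Cpt1a level spanned 1.26 in treated and 0.29 in untreated cells.

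**Figure D1:**
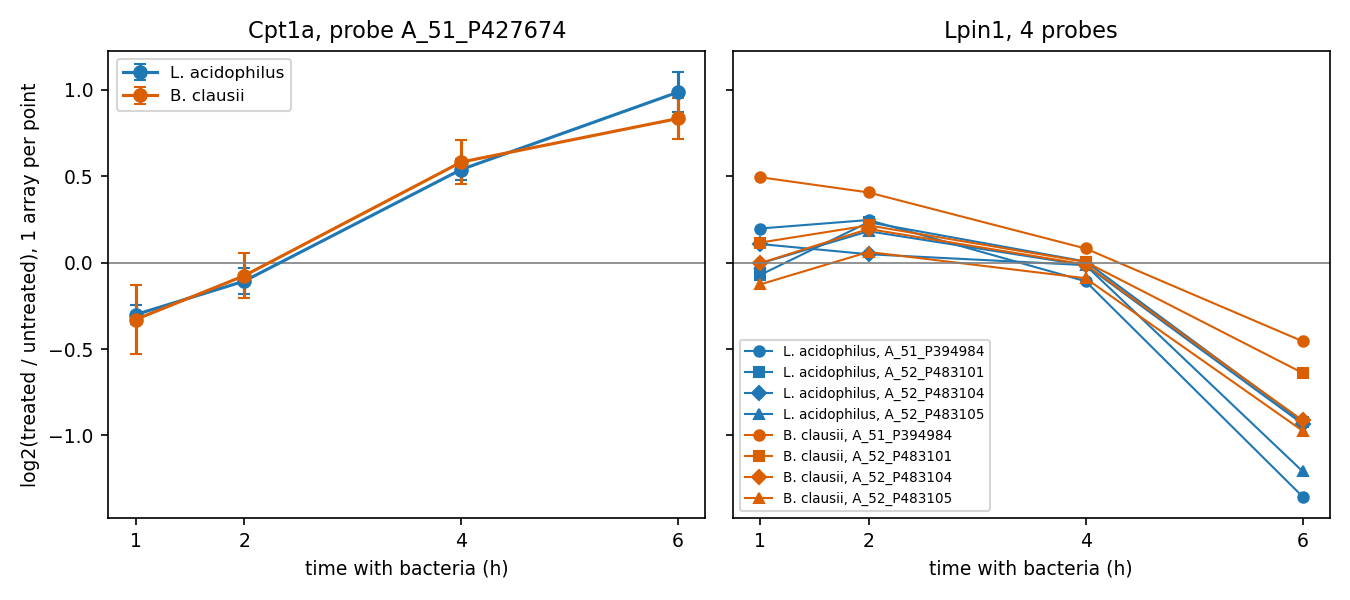
Log2 ratio of treated over untreated cells against time with bacteria (h) for Cpt1a (left, mean of the usable copies of A_51_P427674, bars are the SD over copies) and for 4 Lpin1 probes (right), 1 array per point, L. acidophilus in blue and B. clausii in orange. Cpt1a goes from -0.30 and -0.33 at 1 h to 0.99 and 0.83 at 6 h, while the Lpin1 probes lie between -0.13 and 0.49 up to 4 h and between -1.35 and -0.45 at 6 h.

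The means over 4 arrays were 0.28 ± 0.08 (SE; adjusted p = 0.030) with L. acidophilus and 0.25 ± 0.08 (adjusted p = 0.039) with B. clausii, by limma with Benjamini-Hochberg adjustment over all 21273 probes kept. This error comes from the scatter of neighbouring times (1 with 2 h, 4 with 6 h) and leaves out the step between the early and the late pair. The late pair exceeded the early pair by 0.97 ± 0.16 (SE; 95% interval 0.61 to 1.33; adjusted p = 0.061) with L. acidophilus. The same difference was 0.91 ± 0.16 (0.55 to 1.27; adjusted p = 0.068) with B. clausii. Neither passed the adjusted threshold of 0.05, which 31 probes (0.146% of all) passed with L. acidophilus and 34 (0.16%) with B. clausii. The difference between these 2 steps was -0.06 (95% interval -0.57 to 0.46). None of the 21273 probes passed the test of that difference in limma (0%), and 265 had an unadjusted p under 0.05.

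The Cpt1a calls depended on the processing, the fit and single arrays. Neither mean passed with bacterium as the only term (adjusted p = 0.41 with L. acidophilus and 0.44 with B. clausii), with the scanner software's processed signals (0.092 and 0.060), with a normexp offset of 0 (0.063 and 0.063) or with local backgrounds as deposited (0.061 and 0.11), where the means were 0.22 to 0.32. With a term for each time shared by both bacteria, as if the arrays of a time were pairs, late minus early was 0.94 (adjusted p = 9.0e-05), in a fit that called 4906 of all probes against 31 and 34. The step also passed without the 4 h L. acidophilus array, at 1.19 (adjusted p = 0.026) with L. acidophilus and 0.91 (adjusted p = 0.0497) with B. clausii, and without the 4 h B. clausii array, at 0.97 (adjusted p = 0.039) and 1.04 (adjusted p = 0.024). Leaving out the 6 h B. clausii array gave 0.97 (adjusted p = 0.039) with L. acidophilus, and leaving out the 6 h L. acidophilus array gave 0.91 (adjusted p = 0.049) with B. clausii. The mean with L. acidophilus no longer passed without the 1, 2 or 6 h L. acidophilus array (adjusted p = 0.083, 0.18 and 0.21). The mean with B. clausii no longer passed without the 1 or 2 h L. acidophilus array (adjusted p = 0.058 and 0.057) or the 2 or 6 h B. clausii array (adjusted p = 0.20 and 0.18).

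A second Cpt1a probe, A_52_P219753, did not show these values. Its signal was well above background in treated cells on 2 arrays and in untreated cells on 1, so it is near its limit of detection. Its log2 ratio was 0.02, -0.22, -0.04 and 0.15 with L. acidophilus (1, 2, 4 and 6 h), while B. clausii gave -0.03, -0.17, 0.04 and 0.09. At 6 h with L. acidophilus the treated but not the untreated signal was detected. The measured ratio there was 1.11-fold higher in treated cells, which is not a lower bound.

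**Figure D2:**
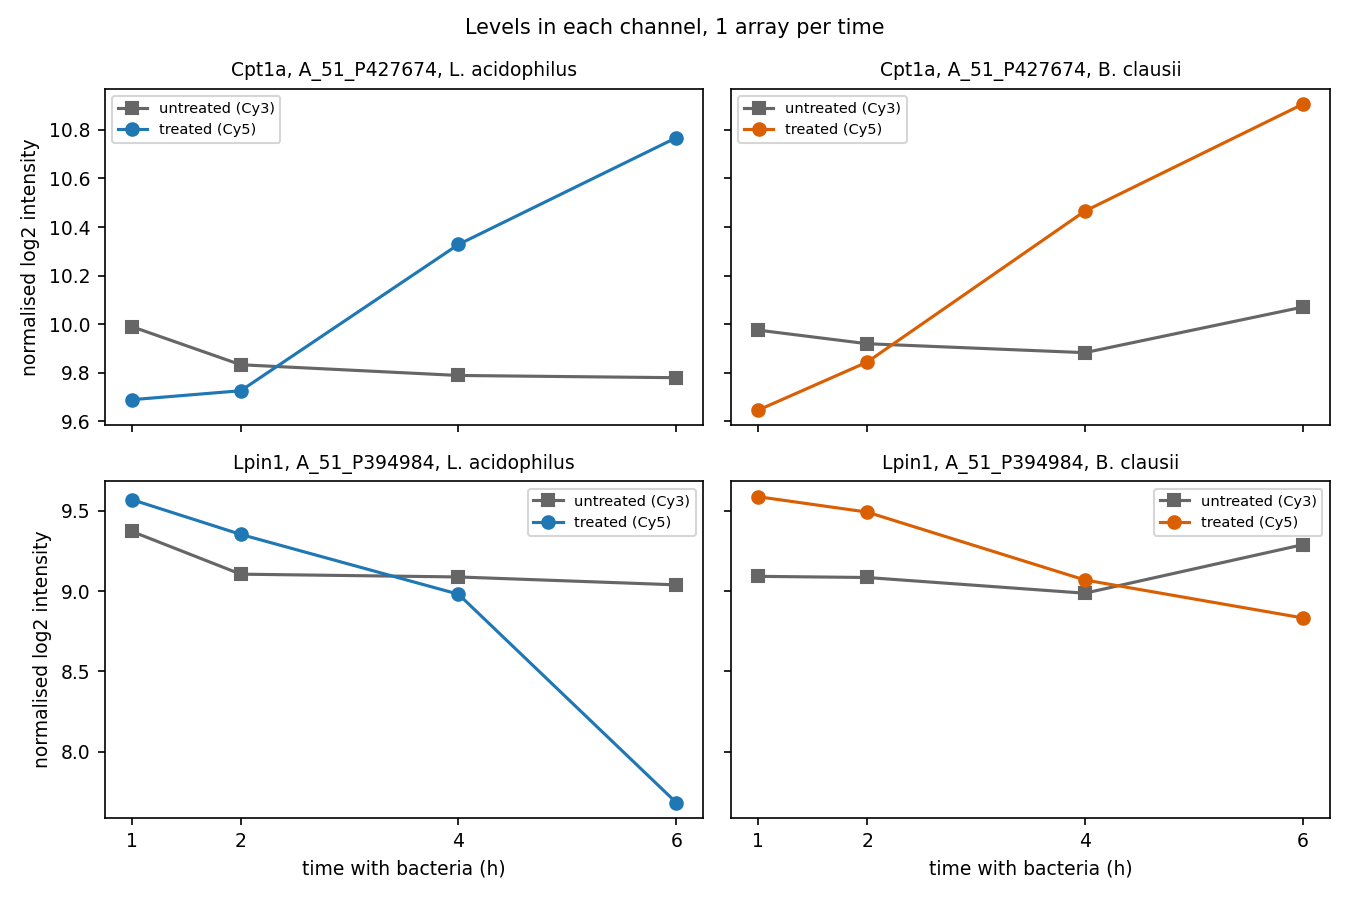
Normalized log2 intensity of Cpt1a (A_51_P427674, top) and Lpin1 (A_51_P394984, bottom) in untreated cells (Cy3, grey squares) and treated cells (Cy5, coloured circles) against time with bacteria (h), 1 array per time, L. acidophilus left and B. clausii right. The treated line crosses the untreated one between 2 and 4 h for Cpt1a, and the untreated levels of Cpt1a stay within 0.29 of each other over the 8 arrays.

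Slc25a20 encodes the carnitine-acylcarnitine carrier of the inner membrane, and its probe maps to chr9:108585399-108585458 (mm9, plus strand). Its log2 ratio was -0.14, -0.09, -0.03 and 0.03 at 1, 2, 4 and 6 h with L. acidophilus. With B. clausii the ratios were -0.37, -0.08, -0.22 and -0.27, all below 0. The carrier was lower with B. clausii (-0.23 ± 0.06, SE, adjusted p = 0.014), while the mean with L. acidophilus was -0.06 ± 0.06 (adjusted p = 0.49). The difference between the bacteria, -0.17 ± 0.07 (95% interval -0.32 to -0.02), had an unadjusted p of 0.029 and did not pass the adjustment (adjusted p = 0.17).

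Cpt2 encodes carnitine palmitoyltransferase 2 on the matrix side of the inner membrane (probe at mm9 chr4:107576571-107576610, minus strand). All 8 of its ratios were below 0: -0.16, -0.26, -0.18 and -0.19 (L. acidophilus) and -0.30, -0.19, -0.35 and -0.13 (B. clausii). The means were -0.20 ± 0.06 (adjusted p = 0.028) and -0.24 ± 0.06 (adjusted p = 0.0091). Cpt2 was thus lower with both bacteria, where Cpt1a, the enzyme at the other end of the shuttle, had its highest ratios late.

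Acadvl, Acadl and Acadm encode the very long-, long- and medium-chain acyl-CoA dehydrogenases, which carry out the first oxidation of each cycle. Their probes map to the minus strand at chr11:69823750-69823809, chr1:66877673-66877732 and chr3:153585670-153585729 (mm9). All 3 were lower on average with both bacteria, and all of their ratios were below 0 at every time. Acadvl had log2 ratios of -0.29, -0.43, -0.22 and -0.17 with L. acidophilus (1, 2, 4 and 6 h), while B. clausii gave -0.72, -0.37, -0.36 and -0.06. Its first value with B. clausii depended on the processing, at -0.29 with the scanner software's processed signals. Its means were -0.28 ± 0.07 (adjusted p = 0.019) and -0.38 ± 0.07 (adjusted p = 0.0033).

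Acadl had ratios of -0.31, -0.29, -0.21 and -0.16 (L. acidophilus) and -0.43, -0.26, -0.16 and -0.01 (B. clausii), with means of -0.24 ± 0.06 (adjusted p = 0.011) and -0.21 ± 0.06 (adjusted p = 0.015). For Acadvl and Acadl the late ratios lay above the early ones with both bacteria. Their late minus early differences were 0.16 ± 0.14 and 0.11 ± 0.11 (L. acidophilus) and 0.34 ± 0.14 and 0.26 ± 0.11 (B. clausii), and none passed the adjusted threshold. Acadm was flatter in time, at -0.23, -0.21, -0.31 and -0.28 (L. acidophilus) and -0.13, -0.27, -0.21 and -0.28 (B. clausii). Its means of -0.26 ± 0.05 (adjusted p = 0.0065) and -0.22 ± 0.05 (adjusted p = 0.0094) both passed.

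Hadha and Hadhb encode the alpha and beta subunits of the mitochondrial trifunctional protein, which completes the cycle for long chains. The 2 genes lie head to head: in the RefSeq annotation of GRCm38.p6 their starts on chromosome 5 are separated by 272 bases, on opposite strands. The Hadha probe A_52_P193029 maps to chr5:30446215-30446274 on the minus strand and the Hadhb probe to chr5:30510794-30510853 on the plus strand (mm9). A_52_P193029 had ratios of -0.26, -0.17, -0.20 and -0.02 (L. acidophilus) and -0.59, -0.27, -0.11 and 0.07 (B. clausii). Both of its channels were low on the 6 h B. clausii array. The untreated level there was 8.84 against 9.54 to 9.82 on the others, and the treated level 8.91 against 9.24 to 9.59. Hadha was lower on average with B. clausii (-0.22 ± 0.07, adjusted p = 0.028), and its mean with L. acidophilus was -0.16 ± 0.07 (adjusted p = 0.095). Hadhb had ratios of -0.06, -0.12, -0.06 and -0.17 (L. acidophilus) and 0.08, -0.12, -0.08 and -0.22 (B. clausii). Its means of -0.10 ± 0.06 (adjusted p = 0.21) and -0.09 ± 0.06 (adjusted p = 0.29) did not pass.

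The other Hadha probe that was kept, A_52_P658044 (mm9 chr5:30480638-30480697), maps 34363 bases from A_52_P193029 on the same strand. It was detected in treated cells on 7 arrays and in untreated cells on 4. Its ratios were 0.09, 0.21, -0.11 and 0.26 (L. acidophilus) and -0.06, 0.30, 0.17 and 0.27 (B. clausii), with means of 0.11 ± 0.08 and 0.17 ± 0.08 that did not pass (adjusted p = 0.30 and 0.12). On 3 arrays treated but not untreated cells were detected. The measured ratios there were 1.20-fold (L. acidophilus, 6 h), 1.12-fold (B. clausii, 4 h) and 1.21-fold (B. clausii, 6 h) higher in treated cells. These are not lower bounds. The sign of this probe's ratio was opposite to that of A_52_P193029 on all arrays but 3, the 4 h L. acidophilus and the 1 and 6 h B. clausii arrays.

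**Figure D3:**
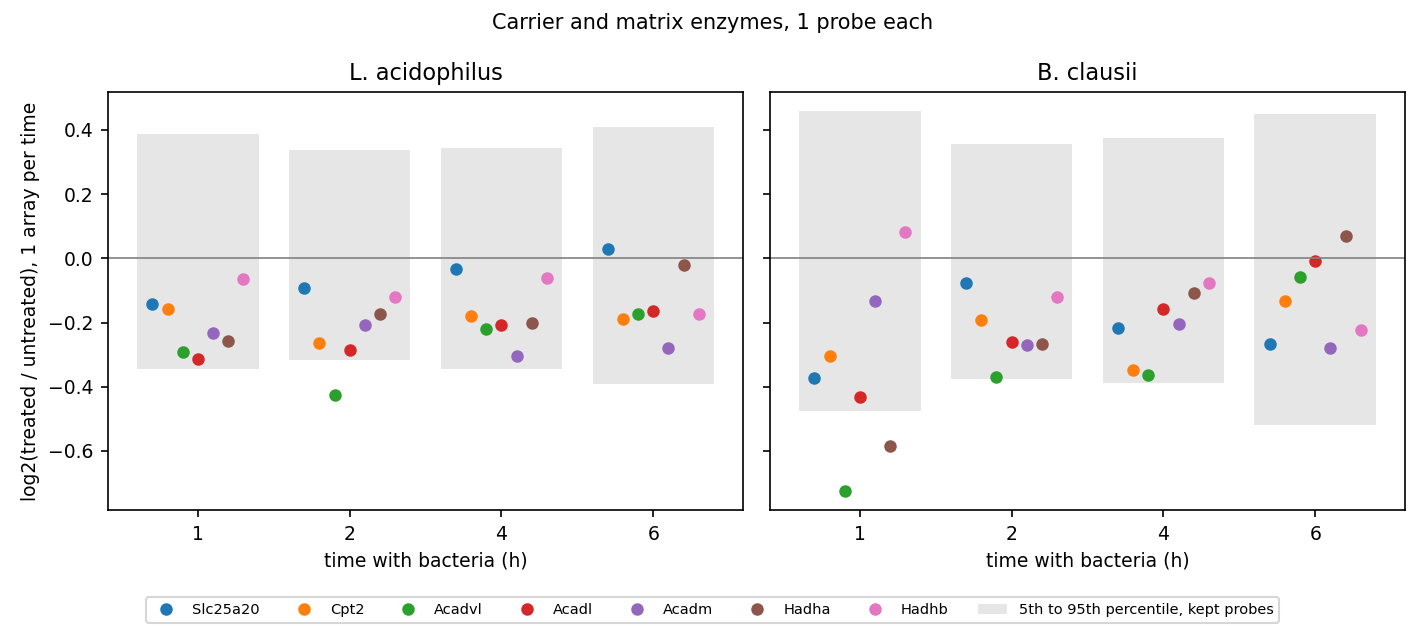
Log2 ratio of treated over untreated cells on each array for Slc25a20, Cpt2 and the beta-oxidation enzyme genes, 1 probe each, by time with L. acidophilus (left) and B. clausii (right); grey boxes span the 5th to 95th percentile of all 21273 probes kept. Most points lie between 0 and the lower edge of the boxes, and the points below it are Acadvl at -0.43 (2 h, L. acidophilus) and Acadvl at -0.72 and Hadha at -0.59 (1 h, B. clausii).

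In all, 5 of the 14 member probes passed for the mean response to L. acidophilus, against 26.1% of all probes. Higher was Cpt1a (13.6% of all probes were called higher), and lower were Cpt2, Acadvl, Acadl and Acadm (12.5% of all were called lower). With B. clausii 7 of 14 passed, against 30.5% of all. Higher was again Cpt1a (13.9% of all higher), and lower were Slc25a20, Cpt2, Acadvl, Acadl, Acadm and Hadha (16.6% of all lower). A ratio below 0 at all 4 times was found for 6 member probes with L. acidophilus, against 21.5% of all probes, and for 5 with B. clausii, against 20.9%. The median log2 mean over all probes was 0.00 and -0.01, so the shares of higher and lower calls over the whole array were nearly even (52.1% of calls higher with L. acidophilus and 45.6% with B. clausii).

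That split rests on the normalization, which sets the average ratio at each brightness to 0. With each array only centred on its median, the median ratio of the probes kept shifted to between -0.12 and -0.06 on the L. acidophilus arrays and to -0.43, -0.25, -0.13 and -0.15 on those of B. clausii (1, 2, 4 and 6 h), and the higher share of calls became 21.0% and 7.64%. Under that centring the Cpt1a mean was 0.09 with L. acidophilus and -0.20 with B. clausii, against medians over all probes of -0.09 and -0.24, and neither passed. The means of Acadvl, Acadl, Acadm and Cpt2 were then -0.43 to -0.36 with L. acidophilus and -0.79 to -0.66 with B. clausii, and passed. With the scanner software's own processed signals, the members called with L. acidophilus were Acadvl and, newly, Hadha A_52_P193029 (-0.18, adjusted p = 0.041). Those called with B. clausii were Slc25a20, Acadvl and Acadm, all lower, and, newly, Hadha A_52_P658044, higher (0.72, adjusted p = 0.046). Cpt2 was then at -0.07 and -0.11 (adjusted p = 0.30 and 0.11) and Acadl at -0.16 and -0.13 (adjusted p = 0.092 and 0.13), neither of which passed.

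Single arrays also bore on the calls, over the whole array as well as among the members. Without the 1, 2 or 6 h L. acidophilus array, fewer member probes and fewer of all probes passed for the mean with L. acidophilus. The same held for the mean with B. clausii without the 1 or 4 h B. clausii array. Such a refit leaves 1 array in a bacterium and phase, so no counts are given here. Without the 1, 2 or 6 h L. acidophilus array the L. acidophilus mean of Cpt2 was -0.22, -0.17 and -0.20. For Acadvl it was -0.31, -0.25 and -0.29, and for Cpt1a 0.33, 0.23 and 0.17.

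**Figure D4:**
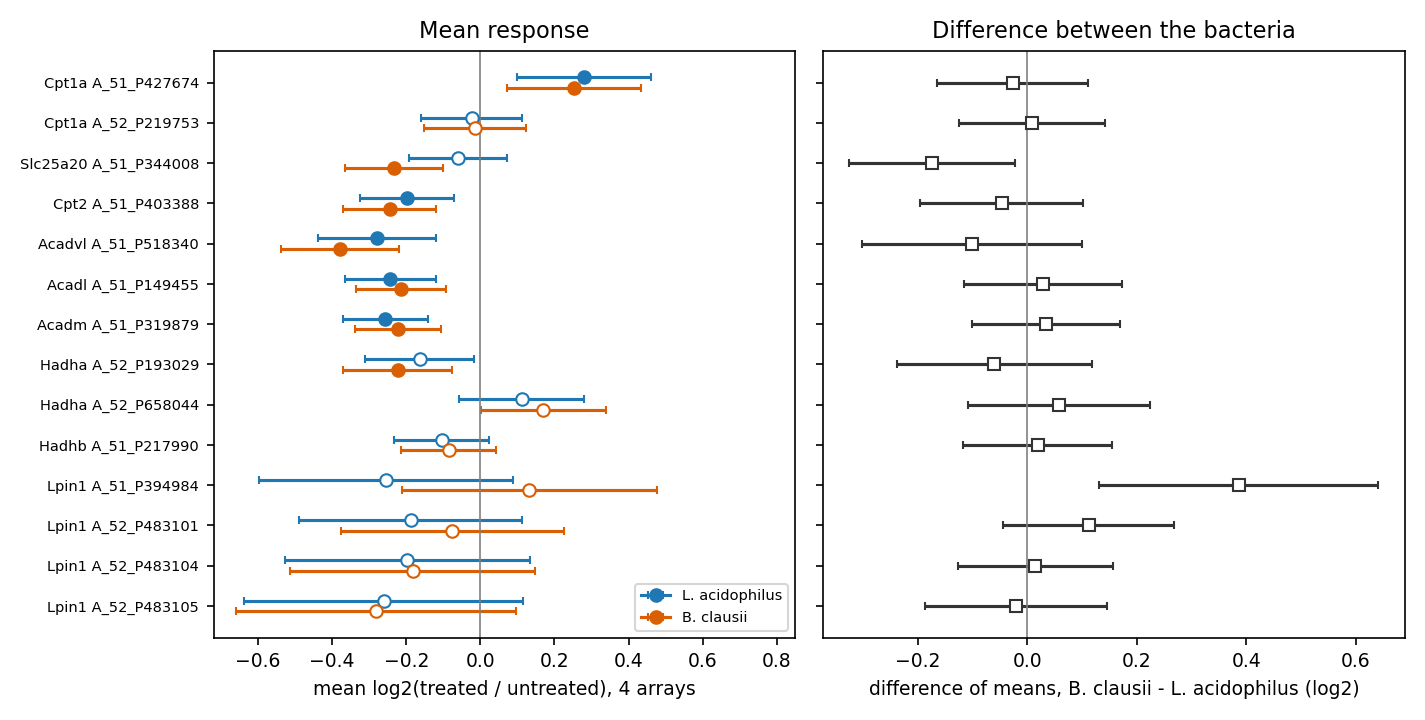
Mean log2 ratio over 4 arrays of each member probe with its 95% interval (left; filled points passed an adjusted p of 0.05) for L. acidophilus (blue) and B. clausii (orange), and the difference of the means, B. clausii minus L. acidophilus, with its 95% interval (right). The intervals of both bacteria overlap for every probe, and the difference farthest from 0 is 0.39 for Lpin1 A_51_P394984.

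Ppard encodes PPAR delta, a nuclear receptor that is activated by fatty acids and known to induce oxidation genes. Its probe, A_51_P271556, was not well above background in treated or untreated cells on any of the 8 arrays. No level or ratio of Ppard can therefore be read from these data.

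Lpin1 encodes lipin 1, a phosphatidate phosphatase of triglyceride synthesis that also acts as a nuclear coactivator of oxidation genes. At 6 h all 4 Lpin1 probes were lower in treated cells with both bacteria, and up to 4 h they were near or above 0. Probe A_51_P394984 had log2 ratios of 0.20, 0.25, -0.11 and -1.35 with L. acidophilus (1, 2, 4 and 6 h), while B. clausii gave 0.49, 0.41, 0.08 and -0.45. Probe A_52_P483105 had ratios of -0.00, 0.18, -0.01 and -1.21 (L. acidophilus) and -0.13, 0.06, -0.09 and -0.97 (B. clausii). The low value thus stood at a single time, 6 h, which is also the last.

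For A_52_P483104 the ratios were 0.11, 0.05, -0.01 and -0.93 (L. acidophilus) and -0.00, 0.20, -0.01 and -0.91 (B. clausii). For A_52_P483101 they were -0.07, 0.23, 0.01 and -0.92, and 0.12, 0.22, 0.00 and -0.64. The mean of the 4 probes at 6 h was -1.10 with L. acidophilus and -0.74 with B. clausii. Pairs of these probes had a Pearson r of 0.88 to 0.98 over the 8 arrays, as a description of probes that read one transcript and in part the same bases. On the 6 h L. acidophilus array, 1, 9, 32 and 34 of the other probes kept had a lower ratio than A_51_P394984, A_52_P483105, A_52_P483104 and A_52_P483101.

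Between 4 and 6 h the treated level of A_51_P394984 went from 8.98 to 7.68 with L. acidophilus, and the untreated level from 9.09 to 9.04. With B. clausii the treated level went from 9.07 to 8.83 and the untreated level from 8.99 to 9.29, so that part of this probe's lower ratio at 6 h lay in the untreated channel. For A_52_P483105 with B. clausii the treated level went from 8.94 to 8.34 and the untreated level from 9.03 to 9.31.

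A change of at least 2-fold on a single array was reached by 2 of all the member values, against 0.285% of the values of all probes over the 8 arrays. Both were Lpin1 on the 6 h L. acidophilus array, A_51_P394984 at 2.56-fold lower and A_52_P483105 at 2.31-fold lower, where 26 probes (0.122%) were at least 2-fold lower. There is no replicate of a single array and hence no test of these values. In the fit, late minus early was -0.95 ± 0.31, -0.70 ± 0.34, -0.55 ± 0.30 and -0.54 ± 0.27 (SE) with L. acidophilus for A_51_P394984, A_52_P483105, A_52_P483104 and A_52_P483101 (adjusted p = 0.28 to 0.51). With B. clausii it was -0.64 ± 0.31, -0.50 ± 0.34, -0.56 ± 0.30 and -0.48 ± 0.27 (adjusted p = 0.32 to 0.47). No Lpin1 probe passed, nor did any of the 14 member probes. An unadjusted p under 0.05 was found for 2 of them with L. acidophilus, against 11.3% of all probes. With B. clausii it was 4, against 17.3% of all probes.

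The late pair joins a 4 h value near 0 with the low 6 h value. Without both 4 h arrays all 4 Lpin1 probes passed with both bacteria, A_51_P394984 at -1.58 and A_52_P483105 at -1.30 with L. acidophilus (adjusted p = 0.0017 to 0.019 over the 4 probes) and -0.91 and -0.94 with B. clausii (adjusted p = 0.0085 to 0.022), and without the 4 h L. acidophilus array alone A_51_P394984 passed with L. acidophilus at -1.58 (adjusted p = 0.018). Without the 6 h L. acidophilus array the step with L. acidophilus was -0.33, -0.10, -0.09 and -0.07 for A_51_P394984, A_52_P483105, A_52_P483104 and A_52_P483101, and without the 6 h B. clausii array the step with B. clausii was -0.37, -0.06, -0.11 and -0.16, none of which passed. With a term for each time the values were -0.80 to -0.51 (adjusted p = 0.00069 to 0.0018), in the fit that called 4906 of all probes.

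Complete separation of the late pair from the early pair, in either direction, was no mark of these genes. Late ratios above both early ones were found for 4 member probes with L. acidophilus (24.1% of all probes) and 5 with B. clausii (24.1%). Late ratios below both early ones were found for 4 with L. acidophilus (24% of all) and 3 with B. clausii (21.5%). The Lpin1 probes A_51_P394984 and A_52_P483104 were separated downward with both bacteria, and Cpt1a A_51_P427674, Acadvl and Acadl upward with both.

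The bacteria were compared within each time, as B. clausii minus L. acidophilus. None of the 14 member probes passed, where 1.45% of all probes did. An unadjusted p under 0.05 was found for 2 member probes, against 23% of all probes. For Cpt1a A_51_P427674 the difference of means was -0.03 (95% interval -0.16 to 0.11). For Cpt2, Acadvl, Acadl, Acadm, Hadha A_52_P193029 and Hadhb it lay between -0.10 and 0.03, with intervals that stayed within -0.30 and 0.17. Differences within these intervals are not excluded.

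Lpin1 A_51_P394984 was higher with B. clausii than with L. acidophilus at each of the 4 times, with a difference of means of 0.39 ± 0.11 (95% interval 0.13 to 0.64; unadjusted p = 0.0073) that did not pass (adjusted p = 0.11). The neighbouring probes A_52_P483101, A_52_P483104 and A_52_P483105 gave 0.11, 0.01 and -0.02, so the 4 probes did not show one difference. With arrays centred on their medians in place of the normalization by brightness, 6 member probes passed, all lower with B. clausii, in a fit where 1.72% of the called differences over all probes were higher, in place of 32.8%. Slide and bacterium coincide in each of these comparisons.

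The genes around the pathway were read through lists of 116 genes, not counting the lists of the members. Of these, 102 had a probe kept, and the brightest probe per gene was used. With L. acidophilus 9 of the 102 were called higher and 19 lower, against 13.6% and 12.5% of all probes. With B. clausii it was 12 and 25, against 13.9% and 16.6%. These shares count every probe kept rather than 1 per gene. Late minus early called 0 of the 102 with either bacterium, where 0.146% and 0.16% of all probes were called.

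Of 16 other genes of mitochondrial beta-oxidation and electron transfer, 0 were higher and 7 lower with L. acidophilus, and 0 higher and 11 lower with B. clausii. Of all probes 12.5% and 16.6% were called lower. Their median was -0.17 and -0.23, against 0.00 and -0.01 over all probes. Hadh, the short-chain hydroxyacyl-CoA dehydrogenase, was lower with both bacteria (-0.32 ± 0.07 and -0.33 ± 0.07), with its lowest ratios at 1 h (-0.59 and -0.71) and ratios of -0.08 and -0.07 at 6 h. Acad12, an acyl-CoA dehydrogenase family member, had means of -0.34 ± 0.07 and -0.34 ± 0.07, with its lowest ratios at 6 h (-0.52 and -0.65). Acads, the short-chain acyl-CoA dehydrogenase gene, was also lower with both (-0.29 ± 0.06 and -0.23 ± 0.06), as was Hsd17b10 (-0.31 ± 0.06 and -0.26 ± 0.06). Echs1, the enoyl-CoA hydratase gene, was lower with B. clausii (-0.38 ± 0.07) and had a mean of -0.19 ± 0.07 with L. acidophilus that did not pass (adjusted p = 0.090).

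Of 4 other carnitine genes measured, 0 were higher and 2 lower with L. acidophilus, and 1 was higher and 1 lower with B. clausii. Crot, the peroxisomal carnitine octanoyltransferase, was lower with both bacteria (-0.25 ± 0.07 and -0.24 ± 0.07) and Crat, carnitine acetyltransferase, with L. acidophilus (-0.21 ± 0.07). Slc22a5, the carnitine transporter of the plasma membrane, was higher with B. clausii (0.18 ± 0.06). Among 10 peroxisomal genes, 1 was higher and 2 lower with L. acidophilus, and 0 higher and 2 lower with B. clausii. Decr2, a dienoyl-CoA reductase, was lower with both (-0.31 ± 0.05 and -0.59 ± 0.05).

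For the lists in this paragraph, the shares of all probes called higher and lower were 13.6% and 12.5% (L. acidophilus) and 13.9% and 16.6% (B. clausii). Among the PPAR family and its transcriptional partners, 0 of 13 genes were higher, and 2 with L. acidophilus and 3 with B. clausii were lower. Rxra, the shared partner receptor of the PPARs, was lower with both (-0.44 ± 0.06, adjusted p = 0.0013, and -0.24 ± 0.06, adjusted p = 0.014). Of 12 known PPAR target genes 7 were measured, and the calls went both ways. Lpl, lipoprotein lipase, was higher at all 4 times with both bacteria (0.44 ± 0.05 and 0.59 ± 0.05), as was Angptl4, an inhibitor of that lipase (0.24 ± 0.06 and 0.30 ± 0.06). Acot1, an acyl-CoA thioesterase, was lower with both (-0.44 ± 0.08 and -0.37 ± 0.08), with its lowest ratios at 6 h (-0.83 and -0.71). Of 12 genes of malonyl-CoA and AMPK control, which bears on the activity of the Cpt1a enzyme, 1 was higher and 2 lower with each bacterium. The AMPK subunit gene Prkab2 was higher with both bacteria (0.20 ± 0.06 and 0.50 ± 0.06) and more so with B. clausii (difference 0.31 ± 0.06, adjusted p = 0.045). That difference is 1 of 308 called over all probes, and slide and bacterium coincide in it. With processed signals or a normexp offset of 0, the comparison of the bacteria called 0 probes of the array. The AMPK catalytic subunit gene Prkaa1 was lower with both (-0.24 ± 0.07 and -0.42 ± 0.07), as was the deacetylase gene Sirt1 (-0.31 ± 0.06 and -0.27 ± 0.06). Of 10 genes of fatty acid uptake, binding and activation, 1 was higher and 0 lower with L. acidophilus, and 2 were higher and 1 lower with B. clausii. Dbi, the acyl-CoA binding protein gene, was higher with both (0.17 ± 0.05 and 0.23 ± 0.05).

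The next 3 lists stand beside the same shares of all probes, 13.6% higher and 12.5% lower (L. acidophilus) and 13.9% and 16.6% (B. clausii). Among 12 genes of lipins and glycerolipid synthesis, 1 was higher and 2 lower with L. acidophilus, and 2 higher and 2 lower with B. clausii. Agpat2, an acyltransferase of phosphatidate synthesis, was lower with both (-0.27 ± 0.06 and -0.20 ± 0.06). In the list of lipolysis and lipid droplets 2 of 7 genes were higher and 1 lower with L. acidophilus, and 1 was higher and 1 lower with B. clausii. Lipa, lysosomal acid lipase, was lower with both (-0.47 ± 0.05 and -0.76 ± 0.05), and Hilpda, a lipid droplet protein, was higher (0.37 ± 0.05 and 0.35 ± 0.05). In fatty acid synthesis 1 of 11 genes was higher and 0 lower with L. acidophilus, and 3 were higher and 1 lower with B. clausii, the lower one being Acly, the ATP citrate lyase gene (-0.25 ± 0.06). Scd2, a stearoyl-CoA desaturase, was higher with both (0.26 ± 0.08 and 0.59 ± 0.08), with ratios of 0.74 and 0.87 at 1 h and -0.42 and 0.32 at 6 h.

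The genes whose 8 ratios were most like those of Cpt1a A_51_P427674, among 12951 genes with a symbol, were Bbs4, Sinhcaf, Pithd1, Foxm1 and Tmem268, with a Pearson r of 0.995 to 0.985 over 8 arrays. Tmem268 had ratios of -0.07, -0.19, 0.72 and 1.18 (L. acidophilus) and -0.40, -0.13, 0.76 and 1.01 (B. clausii). Most like Lpin1 A_51_P394984 were AI413582, Ltn1, Clic1, Cd14 and Arhgef38, with r of 0.991 to 0.979. Cd14, the lipopolysaccharide co-receptor, had ratios of 0.15, 0.26, -0.05 and -0.67 (L. acidophilus) and 0.41, 0.46, 0.23 and -0.19 (B. clausii). The points of each r share arrays, slides and possibly untreated pools, and the genes were picked as the highest of many.

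The promoters of Cpt1a and Lpin1 are shown because these genes had the widest time courses and opposite signs at 6 h. They are the 250 bases before the start in RefSeq's annotation of GRCm38.p6, 5′ to 3′ on the gene's strand, with motif matches on either strand in capitals. Cpt1a's window is chr19:3323051-3323300 on the plus strand and Lpin1's is chr12:16610967-16611216 on the minus strand.
Cpt1a promoter: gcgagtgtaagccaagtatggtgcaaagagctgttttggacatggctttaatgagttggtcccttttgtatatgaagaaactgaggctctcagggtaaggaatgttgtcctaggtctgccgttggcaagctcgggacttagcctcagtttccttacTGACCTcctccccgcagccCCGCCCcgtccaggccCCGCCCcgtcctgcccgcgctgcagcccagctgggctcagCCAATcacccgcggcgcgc
Lpin1 promoter: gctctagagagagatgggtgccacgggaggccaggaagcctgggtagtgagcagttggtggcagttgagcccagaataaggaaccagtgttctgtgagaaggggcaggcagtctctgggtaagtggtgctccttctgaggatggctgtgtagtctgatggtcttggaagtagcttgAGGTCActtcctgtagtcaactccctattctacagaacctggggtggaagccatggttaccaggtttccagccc
The motifs searched, on both strands, were AGGTCA (nuclear receptor half-site), the direct repeat of AGGTCA spaced by 1 base (as bound by PPAR with its partner), TGACGTCA (cyclic AMP response element), CACGTG (E-box), GGGCGG (GC box) and CCAAT. The direct repeat contains the half-site. The half-site occurred once in each window, 94 to 89 bases before the start of Cpt1a and 74 to 69 bases before that of Lpin1, and in 14% of 32851 promoters of this length. Cpt1a also had 2 GC boxes (32.7% of promoters have at least 1) and 1 CCAAT (33.8%), which Lpin1 lacked.

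All 10 genes had a promoter entry, and 4 of them (Cpt1a, Acadvl, Acadm and Lpin1) held a half-site. None held the direct repeat (0.0335% of promoters), the cyclic AMP response element (1.55%) or the E-box (6.02%). GC boxes were found in 7 of the 10, all but Acadvl, Acadm and Lpin1. The windows of Hadha and Hadhb share most of their bases. The GC box 188 to 183 bases before the start of Hadha is the same site as the one 90 to 85 bases before that of Hadhb. The G and C content was 59.6% for Cpt1a and 54.8% for Lpin1, against a median of 52.4%. A match is a description of letters in this window and shows no binding.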

How the data were processed

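The authors deposited 1 scanner output per array, made with Agilent Feature Extraction (version 10.7.3.1 per the file headers, 10.5.1.1 per the submitters' processing notes). Per the file headers it holds spot intensities of both channels, processed intensities after background subtraction and dye normalization, flags per spot and the log10 ratio of red over green; a deposited table of the series held the same log10 ratios, rounded. Mean spot intensities were corrected with normexp (offset 50), and a loess curve was then removed from each array's ratios (limma 3.58.1, R 4.3.3, statmod 1.5.0). Where a local background was over 3 times the array's median and bore an outlier mark, the median took its place; these spots and spots with an outlier flag were left out (0.47% to 0.89% per array). Loess makes the average ratio 0 at each brightness, so a shift shared by most genes is not seen. Spots of a probe were averaged; probes of a gene were kept apart, and probes well above background in either channel on at least 2 arrays and with a value on all 8 were kept (21273 of 41174; 549 lacked a value on some array). The number of arrays limits the precision.

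Means and late minus early differences came from a fit of bacterium by phase (early is 1 and 2 h, late is 4 and 6 h; 4 residual degrees of freedom), and the difference between bacteria from a fit of bacterium and time (3 residual degrees of freedom). Both used limma's moderated test with Benjamini-Hochberg adjustment over all probes kept and a threshold of 0.05. All probes of the members were named; of each other list, up to 4 called genes per contrast by size were eligible; and the 5 genes with the highest r to Cpt1a and Lpin1. The members and lists were chosen with earlier results of these data known. Alternatives were other background corrections, normalizations, filters, probe rules, models, priors and thresholds, and leaving out arrays. Lists were described by counts and medians, with no test of a list.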

Additional observations from a re-analysis of the deposited data

How the results depend on the processing

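Each of 84 member values (a probe in a contrast) was computed under 22 to 26 alternatives. Of these 2086 recomputed values, 1927 stayed on their side of the threshold, 68 newly passed and 88 no longer passed. Values that passed neither before nor after could change sign, as the Lpin1 A_51_P394984 mean with L. acidophilus did (-0.57 to 0.06). The remaining 3 turned direction with a pass in the main fit or in the alternative. All 3 turned with arrays only centred on their medians: the Cpt1a mean with B. clausii at -0.20 (adjusted p = 0.14), and B. clausii minus L. acidophilus for Acadm at -0.27 (adjusted p = 0.046) and Hadhb at -0.29 (adjusted p = 0.028).

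For the mean with L. acidophilus, 5 member probes passed, and 5559 of all probes. Counts over all probes follow in brackets. It was 2 with processed signals (4397), 2 with the deposited log ratios (4369) and 3 with a normexp offset of 0 (4656). It was 3 with local backgrounds as deposited (1148), 10 with bacterium and time in the fit (8729) and 3 with bacterium only (4355). For the mean with B. clausii, 7 passed, and 6495 of all probes. Here it was 4 with processed signals (7472), 4 with the deposited log ratios (7397), 4 with offset 0 (5740) and 4 with deposited backgrounds (3487). Leaving out a single array, or both arrays of a time, left 1 array in a bacterium and phase. No counts are given for those refits.

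For B. clausii minus L. acidophilus, 6 passed with median centring (6796 of all probes against 308) and 0 without any single array; with processed signals no probe of the array passed. For late minus early with L. acidophilus, 0 member probes passed, and 31 of all probes. It was 1 with scaling between arrays (64 of all), 1 with both channels detected on all arrays (49) and 6 with bacterium and time in the fit (4906). It was 1 with a trended robust prior (48) and 1 at an adjusted p under 0.1 (80). With B. clausii 0 passed (34 of all), against 1 with scaling (80), 6 with bacterium and time (4906) and 1 at 0.1 (152). Member values of at least 2-fold on single arrays numbered 2, against 8 with processed signals, 11 with median centring and 5 without background correction, and 0 at 3-fold. No share of all probes is given for these settings, so the counts mark no trait of these genes. The cause of these differences was not tested. Where 1 array of a bacterium and phase was left out, the lone array was assumed to vary like the others. The difference between bacteria already pairs the arrays of a time. No paired analysis by replicate number was possible because every group has 1 array, so the numbers mark no pair.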
